A study of Mus musculus with 2 samples.

Results

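The genes described here are 41 genes of glycolysis and of the hypoxia response, chosen by name from general knowledge of the pathway and found in all cases among the 21911 genes of the deposited table. The rule uses names only and no measured value, but the members were chosen with earlier results of these data known. They comprised 23 glycolysis members (2 glucose transporters, 15 enzymes of the pathway, 4 PFKFB enzymes and 2 lactate and pyruvate transporters), 3 genes of the pyruvate dehydrogenase gate, 2 HIF alpha subunits and 13 other genes of the hypoxia response.

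RNA was sequenced from 4T1 cells, an established mouse mammary carcinoma line, after 48 h with PBS or with potassium oxalate. Each condition had 1 library, so no difference has a replicate check and none was tested between the conditions. The dose of oxalate is given as 20 mM in the treatment protocol and as 20 µM in the sample characteristics, and 5000000 cells were plated in each group. Both groups were the same cell line in culture, with no other agent or allele named in the labels, and polyadenylated RNA was enriched before library preparation. All values are FPKM, fragments scaled by transcript length and by the mapped total, and they are set side by side between genes and between the libraries. Comparisons between genes depend on the lengths used, and those between the libraries on the scaling, as described below.

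Glycolysis splits glucose into pyruvate in the cytosol and yields ATP and NADH, and pyruvate is then either oxidised in mitochondria through pyruvate dehydrogenase or reduced to lactate and exported. Several steps are carried out by paralogs with different tissue ranges, and tumour cells commonly run the pathway at high flux in the presence of oxygen. The transcription factor HIF-1, a dimer of a regulated alpha subunit and a constitutive ARNT subunit, raises transcription of many glycolytic genes when oxygen is low, and in normal oxygen the alpha subunit is hydroxylated by EGLN enzymes and degraded, a step at the protein level that transcript counts do not measure. Oxalate is known as an inhibitor of purified pyruvate kinase, and enzyme activity was not measured here.

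The total of FPKM values was 567163 with PBS and 559026 with oxalate, and the low values corresponded to about 56500000 and 36400000 reads. Markers of epithelium were expressed, and those of the other cell types were near 0 except among the fibroblast markers. All 7 epithelial markers were above 1 FPKM, with a sum of 2086 with PBS and 2131 with oxalate. Of the 6 leukocyte markers, 5 were at 0 in both libraries and the sum was 0.04 and 0. Endothelial markers (3 genes) summed to 0.08 and 0.09, erythroid markers (2 genes) to 0.1 and 0, and adipocyte markers (2 genes) to 0 and 0.06. Of 4 fibroblast markers, Col1a1 (143.5 and 144.6) and Pdgfra (1.88 and 1.93) were above 1 FPKM, at nearly the same level in both libraries. Col1a2 (0.88 and 0.33) and Dcn (0.31 and 0.33) were below 1 FPKM. Col1a1 stood above the epithelial markers Epcam (125.7 and 125.3) and Cldn7 (96.8 and 82.7) and below the other epithelial markers.

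HIF binds DNA at a short core, spelled ACGTG or GCGTG, on either strand. The 250 bases before the annotated RefSeq start (build GRCm38.p6) were available for 37 of the 41 members, and not for Bnip3l, Epas1, Ndrg1 and Slc2a3. At least 1 core was present in 33 of the 37 genes, or 89.2%. The share was 64.4% of the 8158 genes with a mean level of at least 1 FPKM and 41.5% of all 27025 genes with such a sequence. Genes with several starts count once here. By window, the shares were 76.4% of 55 windows for the members, 58.0% of the 10472 windows of genes with a mean of at least 1 FPKM and 38.6% of all 32851 windows. Among glycolysis members 19 of 22 genes held a core, and among the hypoxia response members outside glycolysis 10 of 11.

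A match to a 5-base core is a description of the sequence and not evidence of binding. ACGTG also lies within CACGTG, the E-box of other factors, and is then read on both strands. The upstream sequences of 4 members are given here as examples in both directions: Ankrd37 and Slc16a1 were lower in the oxalate library, and Egln3 and Pfkp were higher. They were chosen after the values were seen. Each sequence runs 5′ to 3′ on the strand of the gene and ends at the base before the start, with the cores in capitals on whichever strand they read. They are Ankrd37 (chr8:45999851-46000100, minus strand), Slc16a1 (chr3:104638414-104638663, plus strand), Egln3 (chr12:54203875-54204124, minus strand) and Pfkp (chr13:6648772-6649021, minus strand). Bases just after the start were found in a GENCODE M21 transcript of the gene for all but Egln3. The Ankrd37 window lies within the GENCODE M21 span of its gene (chr8:45996902-46005707), so it is not upstream of every annotated start.
Ankrd37: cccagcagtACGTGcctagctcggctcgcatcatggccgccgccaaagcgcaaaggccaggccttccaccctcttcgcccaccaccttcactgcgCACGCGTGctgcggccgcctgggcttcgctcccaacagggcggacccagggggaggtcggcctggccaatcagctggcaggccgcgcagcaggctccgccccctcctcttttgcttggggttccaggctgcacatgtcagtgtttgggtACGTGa
Slc16a1: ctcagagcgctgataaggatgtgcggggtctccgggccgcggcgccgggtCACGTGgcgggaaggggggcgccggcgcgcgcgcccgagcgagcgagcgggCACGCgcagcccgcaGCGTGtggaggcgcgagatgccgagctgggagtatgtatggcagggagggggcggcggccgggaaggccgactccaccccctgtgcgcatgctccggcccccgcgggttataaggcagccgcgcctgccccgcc
Egln3: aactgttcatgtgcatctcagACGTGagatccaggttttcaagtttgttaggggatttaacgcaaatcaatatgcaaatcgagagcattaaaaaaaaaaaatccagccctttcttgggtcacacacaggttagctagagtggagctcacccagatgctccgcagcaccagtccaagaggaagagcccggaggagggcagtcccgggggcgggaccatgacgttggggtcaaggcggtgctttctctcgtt
Pfkp: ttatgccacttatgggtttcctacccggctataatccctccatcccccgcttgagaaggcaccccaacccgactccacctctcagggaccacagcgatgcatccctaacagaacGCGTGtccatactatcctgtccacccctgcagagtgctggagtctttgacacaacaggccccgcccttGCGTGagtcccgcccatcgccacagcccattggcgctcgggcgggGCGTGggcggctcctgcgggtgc

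Ankrd37 held 4 cores, counted from the start the last began at position -6, and a pair overlapped within CACGCGTG. Slc16a1 also held 4, and in this gene a pair fell on the same CACGTG, beginning at -200. Egln3 had a single ACGTG at -229. Pfkp had 3 copies of GCGTG, at -136, -68 and -23. Among these examples, several cores stood upstream of Ankrd37 and Slc16a1, which had lower values, and of Pfkp, which had a higher value. The examples were picked in both directions, so they cannot show whether the number of cores goes with direction.

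Most glycolytic enzymes were slightly higher in the oxalate library, and few differences were large. Of the 23 glycolysis members, 21 had a mean of at least 1 FPKM in the 2 libraries and entered the comparison, in which the difference is log2((oxalate + 1)/(PBS + 1)). In this comparison 16 of the 21 were higher in the oxalate library and 5 were lower, where 50.6% of all 10267 genes past the same filter were higher and 49.0% lower. The median log2 difference was 0.10 over the glycolysis members and 0.0031 over all genes. Past a 1.2-fold change, 2 members rose (Pfkm and Aldoc) and 0 fell, where the background was 4.75% of genes raised and 5.19% lowered. In RNA from a whole culture, fewer cells that express a gene and less of its RNA per cell cannot be told apart.

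**Figure D1:**
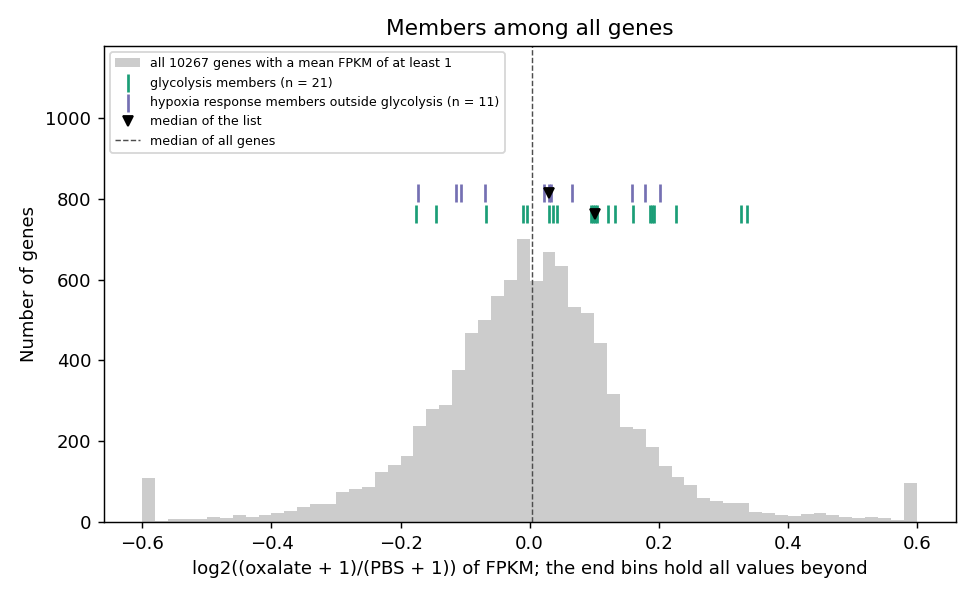
Histogram of the log2 difference, log2((oxalate + 1)/(PBS + 1)) of FPKM, on the x axis over the 10267 genes with a mean of at least 1 FPKM (number of genes on the y axis), with a tick for each of 21 glycolysis members and 11 hypoxia response members outside glycolysis, a triangle at each list's median and a dashed line at the median of all genes. The glycolysis median sits at 0.10, the hypoxia response median at 0.030 and that of all genes at 0.0031.

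Beside each ratio of FPKM values below stands an exact (Clopper-Pearson) 95% interval from the estimated reads. It compares the 2 libraries, not the conditions, and covers counting error only. Among the 21 glycolysis members the interval lay above 1 for 14 and below 1 for 2, where it lay above 1 for 25.0% of all genes tested and below 1 for 23.8%. Highly expressed genes are counted more precisely, and the intervals of such genes leave out 1 more often in both directions. Among the 967 genes with a mean of at least 100 FPKM, 43.5% were higher in the oxalate library, the interval lay above 1 for 30.9% and below 1 for 41.7%, and the median log2 difference was -0.01. Of the 10 glycolysis members in that class, 8 were higher, all 8 with intervals above 1, and their median was 0.07.

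**Figure D2:**
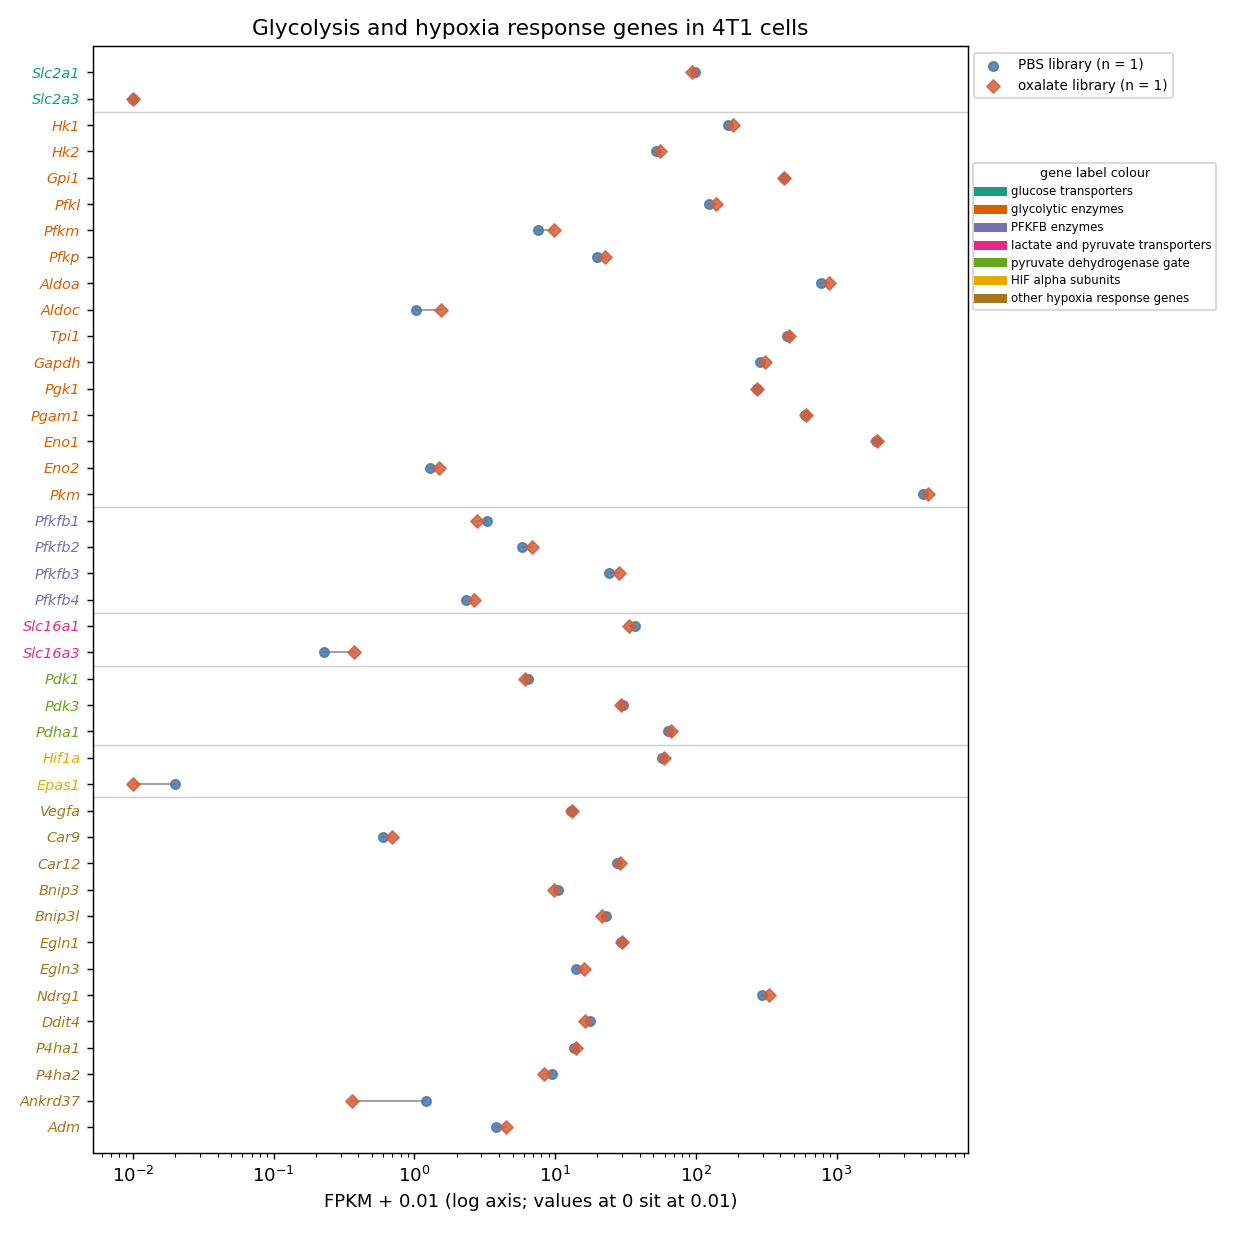
FPKM plus 0.01 on a log x axis for the 41 members, by role from glucose uptake at the top, with a circle for the PBS library and a diamond for the oxalate library (1 each). Levels run from 0 in both libraries for Slc2a3 to 4149 and 4451 FPKM for Pkm, and the pair of symbols overlaps for most genes. The widest gap is that of Ankrd37 (1.2 and 0.35 FPKM).

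Among transcripts for glucose entry, the leading one was Slc2a1 (GLUT1, chr4:119108711-119137983), the basal glucose transporter of most cells. Its level was 98.5 FPKM with PBS and 93.9 with oxalate, a ratio of 0.953 (0.918 to 0.990). Slc2a3 (GLUT3), the high-affinity transporter best known from neurons, was listed at 0 in both, where 3 reads would have given 0.04 and 0.06 FPKM. Slc2a1 made up 96.8% of the summed FPKM of 11 glucose transporter genes of this family with PBS and 96.6% with oxalate. Of the remaining 9 genes only Slc2a9, mainly a urate transporter, had a mean over 1, at 1.22 and 1.42 FPKM.

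Transcripts of hexokinase, which traps glucose as its 6-phosphate, came from Hk1 and Hk2, while Hk3 and Hkdc1 were at 0 in both libraries. Hk1, the widely expressed form, stood at 170.6 FPKM with PBS against 183.5 with oxalate (ratio 1.08, 1.05 to 1.11). Hk2, the insulin-responsive form that is often raised in tumours, was at 52.1 and 55.7 (ratio 1.07, 1.03 to 1.11). The split between them was nearly the same in both libraries, with Hk1 at 76.6% and 76.7% of the sum. By estimated reads Hk1 held 58.1% and 58.3% and Hk2 41.9% and 41.7%. Estimated reads weight a gene by the mean length of its annotated coding transcripts. That was 1244 bases over 18 transcripts for Hk1 and 2937 over 3 for Hk2. Gpi1, which isomerises glucose 6-phosphate to fructose 6-phosphate, was at 426.7 and 423.7 FPKM (ratio 0.993, 0.976 to 1.01), and its interval included 1.

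The committed step, phosphofructokinase, was higher for all 3 paralogs. Pfkl, the liver-type subunit and the main form here (chr10:77986947-78010083), stood at 123.6 FPKM with PBS against 138.3 with oxalate, a ratio of 1.12 (1.09 to 1.15). Pfkp, the platelet-type subunit, was at 19.8 and 22.7 (ratio 1.14, 1.07 to 1.22). Pfkm, the muscle-type subunit (chr15:98092589-98132451), rose from 7.57 to 9.76 FPKM, a ratio of 1.29 (1.16 to 1.43) and a log2 difference of 0.33. The rise left Pfkm as the minor form, at 5.01% and 5.72% of the summed level, with Pfkl at 81.9% and 81.0%. Exons of Pfkm share 18 bases with Senp1 on the opposite strand (28.3 and 30.3 FPKM). They also share 341 bases with Gm26513 on the same strand, which has no FPKM value here. Exons of Pfkp share 748 bases with Pitrm1 on the opposite strand (58.9 and 60.6 FPKM). The use of strand in counting is not given in the sources used here, and the part of these neighbours in the values was not tested.

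The PFKFB enzymes make and remove fructose 2,6-bisphosphate, the strongest activator of phosphofructokinase. Pfkfb3, the form with the highest kinase activity relative to phosphatase, was the leading one, at 24.2 and 28.5 FPKM (ratio 1.18, 1.12 to 1.23; log2 difference 0.23), just short of 1.2-fold. Pfkfb2, the heart-type form, was at 5.86 and 6.82 (ratio 1.16, 1.05 to 1.29). Pfkfb4 was at 2.32 and 2.64 (ratio 1.14, 0.983 to 1.31). The liver-type Pfkfb1 went the other way, at 3.25 and 2.76 (ratio 0.849, 0.694 to 1.04), and intervals of both Pfkfb4 and Pfkfb1 included 1. By share of the family Pfkfb3 held 67.9% and 70.0%, and Pfkfb1 9.12% and 6.78% (5.01% and 3.68% by estimated reads). Exons of Pfkfb1 share 123 bases with Apex2 on the opposite strand. The level of Apex2 was above that of Pfkfb1, at 14.2 FPKM with PBS and 13.9 with oxalate. Exons of Pfkfb2 share 154 bases with Yod1 on the opposite strand (1.91 and 1.79 FPKM). They also share 1262 bases with Gm29427 on the same strand, which has no FPKM value here. The part of these neighbours was not tested.

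Aldolase showed the largest difference of any step. Aldoa (chr7:126795234-126800751), which cleaves fructose 1,6-bisphosphate, stood at 777 FPKM with PBS against 888 with oxalate, a ratio of 1.14 (1.13 to 1.16). Aldoc, the brain form (chr11:78322968-78327781), rose from 1.02 to 1.55 FPKM, a ratio of 1.52 (1.19 to 1.97) and a log2 difference of 0.34, on about 129 and 127 reads. Aldoa made up 99.9% and 99.8% of the sum. Thus the gene past 1.2-fold was the one that contributed almost nothing to the level of the step. Tpi1, which interconverts the triose phosphates, was at 444.7 and 458.1 FPKM (ratio 1.03, 1.01 to 1.05), and shares 34 exon bases with Spsb2 on the opposite strand (3.68 and 2.18 FPKM).

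At the level of transcripts, the payoff steps described next rested on single genes. Gapdh, which oxidises glyceraldehyde 3-phosphate, stood at 287.6 FPKM with PBS against 308 with oxalate (ratio 1.07, 1.04 to 1.097). Pgk1, the first step that regains ATP, was at 273.3 and 272.6 (ratio 0.997, 0.979 to 1.02). Pgam1, the mutase, was at 594.3 and 606.9 (ratio 1.02, 1.01 to 1.03). The testis form Pgk2 was at 0 in both, and Gapdh and Pgam1 made up nearly all of their families. Pkm (pyruvate kinase, chr9:59656368-59679375) was the member with the highest level and ranked 10 among all genes in each library, at 4149 and 4451 FPKM (ratio 1.07, 1.07 to 1.08). The table gives 1 value for Pkm, so that its M1 and M2 isoforms are not separated. Exons of Pkm share 767 bases with Gm49759 on the same strand, which has no FPKM value here.

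Enolase differed in that a second paralog, Eno3, took part among the 4 counted as the family (Eno1 to Eno4). Eno1, the form of most tissues, stood at 1897 FPKM with PBS against 1944 with oxalate (ratio 1.03, 1.02 to 1.03). Eno2, the neuronal form, was at 1.28 and 1.48 (ratio 1.16, 0.856 to 1.58), an interval that included 1. The muscle form Eno3, a paralog outside the 41, stood at 175.3 and 195.3 FPKM, or 8.45% and 9.12% of the family. These shares leave out Eno1b, a gene nearly identical in sequence to Eno1, which was listed above Eno3 at 341.9 and 353.5 FPKM.

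Of the 41 members, 10 (Gapdh, Eno1, Pgk1, Bnip3, Gpi1, Aldoa, Tpi1, Pgam1, Pkm and Bnip3l) have transcripts elsewhere in the annotation that match them at 95% or more over at least 200 bases, so their values depend on how reads with several matches were counted, which is not given in the sources used here. Gapdh had 91 such genes, of which 89 are pseudogenes. Eno1 had 4, including Eno1b, which was itself listed at 341.9 and 353.5 FPKM. Pgk1 had 4, Bnip3 had 3, and the remaining genes had 1 each.

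Summed over paralogs, 8 of the 10 steps were higher in the oxalate library. The differences were 7.42% at hexokinase, 13.03% at phosphofructokinase and 14.3% at aldolase. At triose phosphate isomerase the difference was 3.02%, at GAPDH 7.11%, at phosphoglycerate mutase 2.04%, at enolase 3.27% (Eno1b left out) and at pyruvate kinase 7.28%. The remaining 2, glucose-6-phosphate isomerase (-0.70%) and phosphoglycerate kinase (-0.26%), were within counting error for their genes and above 0 when both libraries were scaled to the same sum. Thus the 2 largest differences were at neighbouring steps of the upper pathway. In the values as deposited, step 2 and step 7 showed none beyond counting error. With the median of genes of like GC content subtracted (10 bins), the log2 difference of Tpi1 went from 0.04 to 0.0099, that of Eno1 from 0.04 to 0.0011 and that of Pgam1 from 0.03 to -0.0028, so that the leading genes of these 3 steps were then at about 0. The same subtraction took Gpi1 (step 2) from -0.0101 to -0.0431, a move beyond counting error. It took Pgk1 (step 7) from -0.0038 to -0.0210, a move within counting error. The 15 enzymes together made up 1.63% of all FPKM with PBS and 1.75% with oxalate, with sums of 9225 and 9765. Of these 15, 13 were higher and 12 had an interval above 1, and 0 had an interval below 1.

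**Figure D3:**
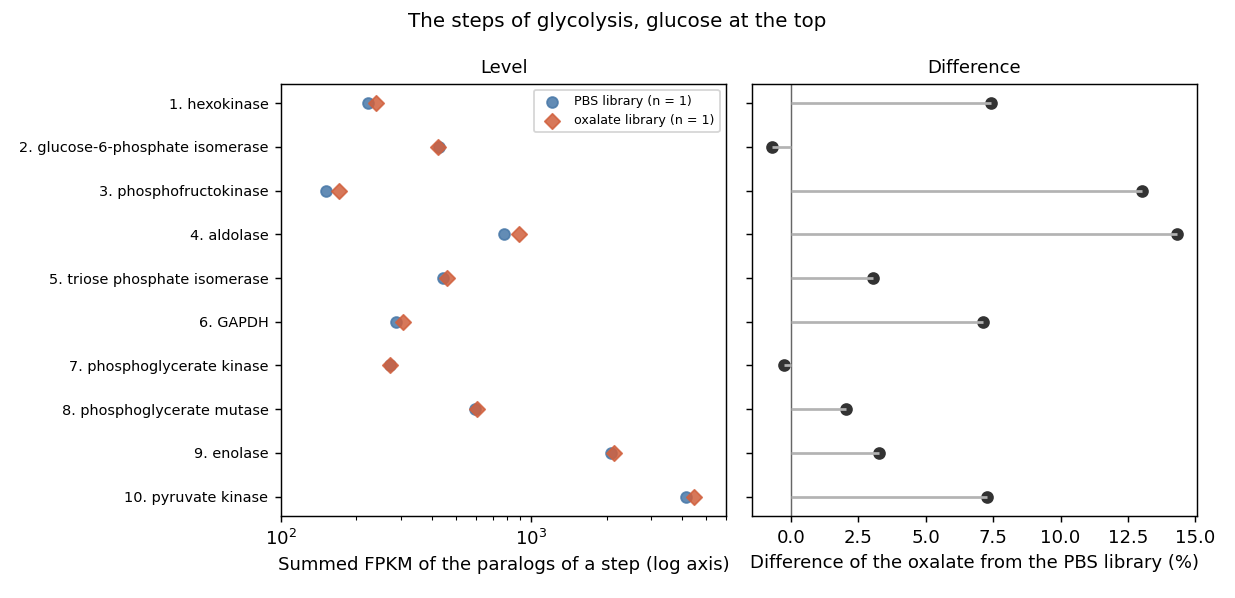
The 10 steps of glycolysis from hexokinase (top) to pyruvate kinase, with the summed FPKM of the paralogs in each library on a log axis (left, 1 library each) and the difference of the oxalate from the PBS library in percent (right). Phosphofructokinase (13.03%) and aldolase (14.3%) stand furthest to the right, and glucose-6-phosphate isomerase and phosphoglycerate kinase lie just below 0.

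Among transcripts of carriers that export lactate together with protons, the leading one was Slc16a1 (MCT1, chr3:104638668-104658462). Transport itself was not measured here. The level of Slc16a1 was 37.2 FPKM with PBS and 33.5 with oxalate, a ratio of 0.902 (0.872 to 0.933), the lowest among glycolysis members whose interval left out 1. Slc16a3 (MCT4), the low-affinity exporter of glycolytic tissues and a HIF-1 target, was at 0.22 and 0.36 FPKM, on about 23 and 25 reads, and its ratio of 1.64 had an interval of 0.918 to 3.11. Thus Slc2a1 and Slc16a1, the carriers past the filter, were lower in the oxalate library by less than 1.2-fold, while Slc16a3, under the filter, had the higher value there. Slc16a1 made up 97.8% and 96.8% of the 4 lactate transporter genes. Glycolysis genes outside the 41 (paralogs and regulators) had a median log2 difference of 0.04 over the 6 of 27 that passed the filter, with 5 higher, 1 lower and 0 past 1.2-fold in either direction.

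**Figure D4:**
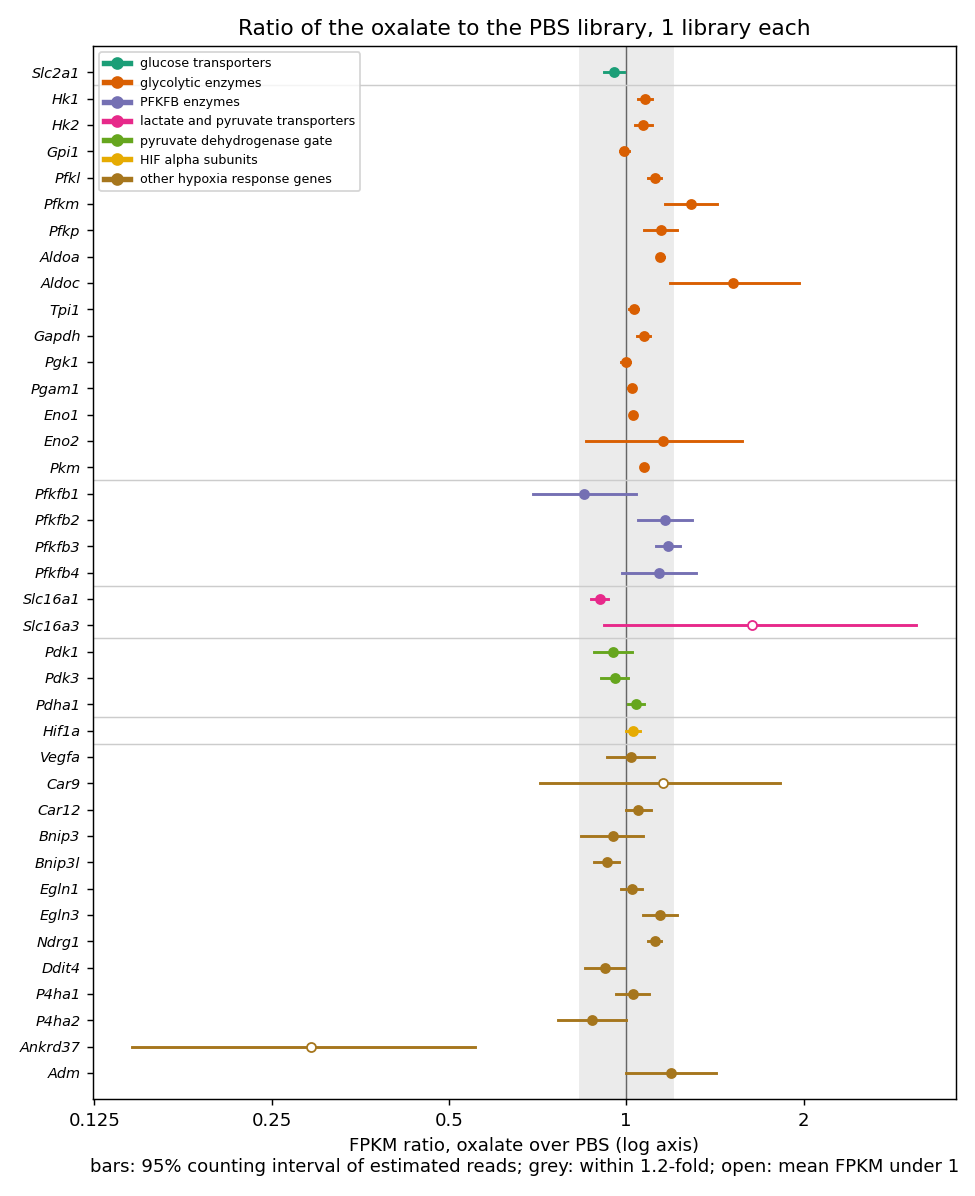
Ratio of FPKM, oxalate over PBS, on a log axis for the 39 members above 0 in both libraries, coloured by role, with bars for the 95% counting interval, grey for the range within 1.2-fold and open circles for genes with a mean under 1 FPKM. Among the filled circles only Pfkm (1.29) and Aldoc (1.52) lie to the right of the grey range, and Ankrd37 (0.292, open) lies far to its left.

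At the pyruvate dehydrogenase gate the values were close. Pdha1, the catalytic subunit on the X chromosome, stood at 63.7 FPKM with PBS against 66.2 with oxalate (ratio 1.04, 1.01 to 1.07). Its inhibitory kinase Pdk3, the leading one in these cells, was at 30.6 and 29.3 (ratio 0.956, 0.907 to 1.01). Pdk1, the kinase known as a HIF-1 target, was at 6.44 and 6.11 (ratio 0.949, 0.881 to 1.02). Neither kinase differed by more than counting error. Pdk3 held 82.0% and 81.8% of the summed level of the 4 kinases. By estimated reads Pdk3 held 65.6% and 65.5%, and Pdk1 33.8% and 33.5%. Of 11 further genes of this complex and of pyruvate entry, 8 passed the filter, 4 higher and 4 lower, with a median of 0.0025 and 0 past 1.2-fold.

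Of the HIF alpha subunits, Hif1a (chr12:73901375-73947530) stood at 57.4 FPKM with PBS against 59.0 with oxalate, a ratio of 1.03 (0.998 to 1.06). Epas1 (HIF-2 alpha) was at 0.01 and 0, and 3 reads would have given 0.01 FPKM in each. Hif1a thus made up 99.6% and 99.8% of the alpha subunit transcripts. Among 12 other genes of HIF control (partner, hydroxylases, VHL complex, coactivators), 10 passed the filter, 6 higher and 4 lower, with a median of 0.02 and 0 past 1.2-fold.

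The hypoxia response genes outside glycolysis differed in mixed directions. Of 13, 11 passed the filter, 7 higher and 4 lower, where 50.6% of all genes tested were higher and 49.0% lower. Their median log2 difference was 0.030. Past 1.2-fold there were 0 in either direction, where the background was 4.75% of genes raised and 5.19% lowered. The interval lay above 1 for 2 of the 11 (18.2%) and below 1 for 3 (27.3%). Over all genes tested the shares were 25.0% and 23.8%. No test set this list against the glycolysis members, whose median was 0.10.

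The prolyl hydroxylases act in the feedback on HIF. Egln3 stood at 14.0 FPKM with PBS against 16 with oxalate (ratio 1.14, 1.07 to 1.22). Egln1, the main oxygen sensor, was at 29.3 and 29.9 (ratio 1.02, 0.981 to 1.06). Egln2, a paralog outside the 41 that is not a hypoxia target, was at 30.03 and 28.12. In this family alone of 16 the leading paralog differed between the libraries, with Egln2 at 40.96% and Egln1 at 39.9% with PBS and 38.0% and 40.4% with oxalate, an order that rests on small differences in level. By estimated reads Egln1 led in both libraries.

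Ndrg1, a stress and differentiation gene that HIF induces (chr15:66929318-66969640), was the highest of this group. Its level was 296.7 FPKM with PBS and 331.5 with oxalate (ratio 1.12, 1.09 to 1.15). The angiogenic ligand gene Vegfa was at 13.01 and 13.23 (ratio 1.02, 0.927 to 1.12). Adm, which encodes the vasodilator peptide adrenomedullin, was at 3.78 and 4.5 (ratio 1.19, 0.997 to 1.42). Its interval reached 1, as that of Vegfa did. Of the carbonic anhydrases that control pH at the cell surface, Car12 was at 27.5 and 28.8 (ratio 1.05, 0.998 to 1.0998). Car9, among the most strongly HIF-dependent genes in tumours, was low, at 0.59 and 0.68 on about 46 and 34 reads (ratio 1.15, 0.714 to 1.83).

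Of the 11 hypoxia response members past the filter, 4 had lower values with oxalate. Bnip3l, a mitophagy receptor, stood at 23.1 FPKM with PBS against 21.4 with oxalate (ratio 0.926, 0.881 to 0.973). Its paralog Bnip3 was at 10.4 and 9.88 (ratio 0.948, 0.839 to 1.07). Ddit4 (REDD1), which restrains mTORC1, was at 17.7 and 16.3 (ratio 0.9198, 0.851 to 0.993). These differences were all under 1.2-fold, and the interval of Bnip3 included 1. Among the collagen prolyl 4-hydroxylases, P4ha2 was at 9.52 and 8.33 (ratio 0.875, 0.767 to 0.999) and P4ha1 at 13.7 and 14.1 (ratio 1.03, 0.962 to 1.09). The share of P4ha2 was 40.5% and 36.6% of the family by FPKM, a difference that at 3.86 percentage points was the largest in a member's share. By estimated reads P4ha2 held 20.5% and 18.0%.

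Ankrd37, a small ankyrin repeat gene known as a HIF-1 target, had the ratio furthest from 1 among the 39 members above 0 in both libraries. It stood at 1.2 FPKM with PBS against 0.35 with oxalate, on about 63 and 12 reads, a ratio of 0.292 (0.145 to 0.553) and a log2 difference of -0.70. Its mean was under the filter of 1 FPKM, so it stands outside the counts above. It shares 57 exon bases on the opposite strand with Ufsp2, at 40.6 and 42.3 FPKM, and 349 with Lrp2bp, at 0.04 and 0.05.

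**Figure D5:**
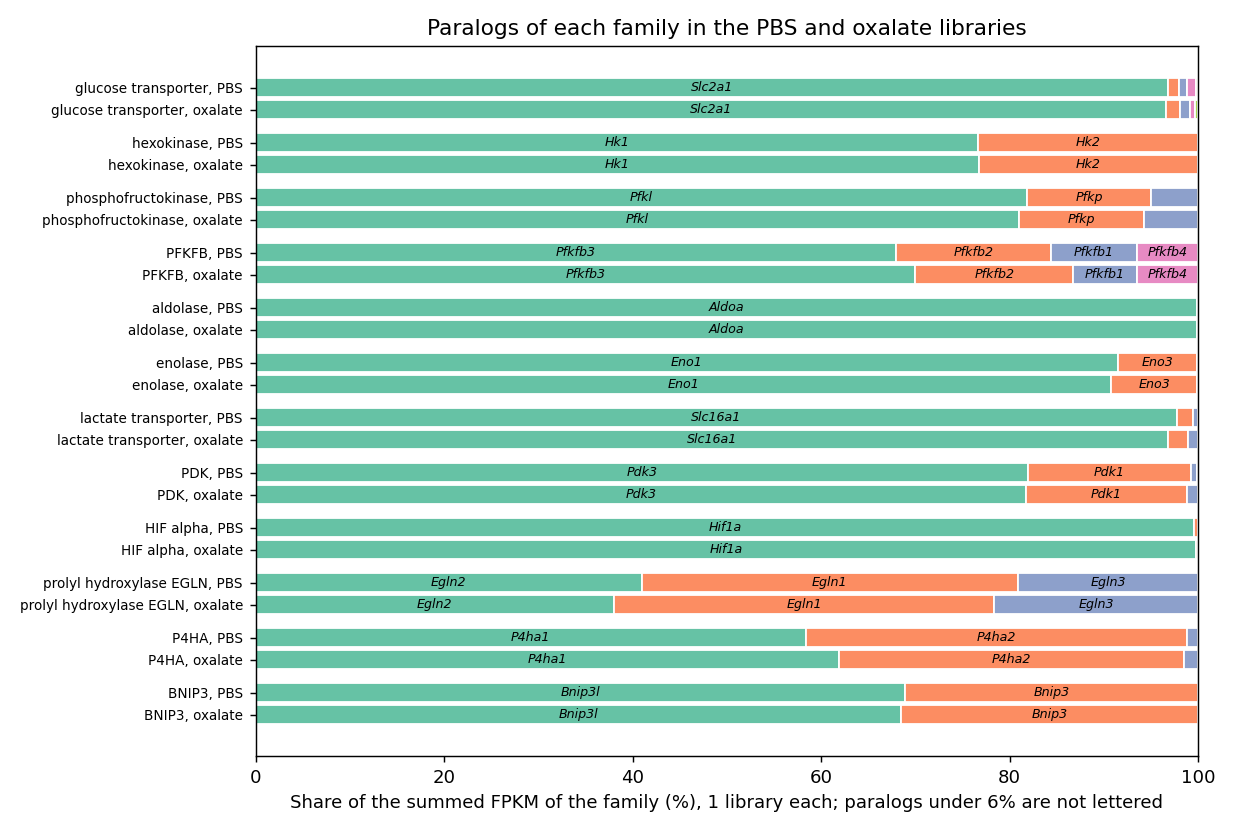
Share of the summed FPKM of each family held by its paralogs, in percent on the x axis, as a pair of stacked bars per family for the PBS and the oxalate library (1 each). The bars of a pair are nearly alike in every family, with the widest shifts in P4HA (P4ha2 40.5% and 36.6%) and in the EGLN family (Egln2 40.96% and 38.0%).

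A longer list of 38 further hypoxia response genes had 30 past the filter, with 18 higher, 12 lower and a median log2 difference of 0.02. In this list 2 genes rose past 1.2-fold and 0 fell. Kdm3a, a histone demethylase, rose from 12.5 to 15.6 FPKM (ratio 1.25, 1.19 to 1.32), and Stc1, a secreted glycoprotein hormone, from 1.92 to 2.57 (ratio 1.34, 1.17 to 1.54). The 2 of 30 compare with the 4.75% of all genes given above.

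GC content of the transcripts moved with the differences between the libraries over all genes. In 10 bins of GC content, the median log2 difference was -0.07 in the lowest bin and 0.03 in the highest. The 5 upper bins held 16 of the 21 glycolysis members and 7 of the 11 hypoxia response members that passed the filter. With each bin's median subtracted, the median was 0.07 over the glycolysis members and -0.0049 over the hypoxia response members outside glycolysis. Pgam1, Vegfa and Egln1 changed sign with the subtraction.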

How the data were processed

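The authors deposited 1 table of FPKM values, rounded to 2 decimals, for 2 libraries of 4T1 cells. Per the submitters' processing notes Bowtie2 2.2.8 and TopHat2 2.1.1 were used, and the genome build, annotation and quantifier are not given in the sources used here. From this table, symbols (21848 of 21911 identifiers), transcript lengths, GC content and coordinates were taken from GENCODE M21 (GRCm38). The log2 difference was computed with a pseudocount of 1, so that low genes show less than their full change, over genes with a mean of at least 1 FPKM, and 1.2-fold was the threshold. Reads were estimated from the spacing of low values (FPKM times length in kb) over genes with 1 transcript, at 0.0177 (PBS, 170 genes) and 0.02745 (oxalate, 240 genes) per read. Lengths from another annotation make these reads, and the 95% intervals and the floors of 3 reads, approximate. Near-identical transcripts were found with BLAST 2.17.0, and other steps used Python 3.11.15, numpy 2.4.6, pandas 2.3.3 and scipy 1.17.1. The read estimate, the calls and the intervals were tested on simulated data that held counting error only and used the same lengths. That test does not cover lengths from another annotation, reads with several matches or variation between cultures. All 41 members were named with both values, and genes outside them only past 1.2-fold with a mean of at least 1 FPKM, or as paralogs, exon-sharing neighbours or near-identical copies of a member, or as cell type markers. Members and lists were chosen with earlier results of these data known. Aldoa has 2 identifiers, of which the higher was used (the other was at 0.04 and 0.07 FPKM). No other column was left out, and no set or chance test was run.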

Additional observations from a re-analysis of the deposited data

How the results depend on the processing

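Pseudocounts of 0.1 and 0.01, division by the median ratio, scaling of both libraries to the same sum, no filter, a mean of at least 5 FPKM, the mean in place of the median and subtraction of the GC trend (chosen after seeing the data) left the median log2 difference of the glycolysis members above 0, from 0.07 to 0.12. The median of the hypoxia response members outside glycolysis reversed with the GC trend subtracted, to -0.0049. The glycolysis members raised went from 2 to 1 with a mean of at least 5 FPKM, and to 0 at 1.5-fold and 0 at 2-fold. The hypoxia response members lowered went from 0 to 1 (Ankrd37) with no filter. Over 196 further values of 40 genes, 12 moved by more than counting error and 5 changed sign, which were Pgam1, Vegfa and Egln1 with the GC trend and Gpi1 and Pgk1 with scaling of both libraries to the same sum. Before these settings the 5 log2 differences were small, from -0.0101 for Gpi1 to 0.0302 for Pgam1. The GC medians subtracted were 0.033 for Pgam1 and 0.035 for Vegfa and Egln1. What lies behind the GC trend and the unlike sums was not tested. By estimated reads in place of FPKM, 10 of 17 shares with PBS, all in glycolysis families, moved by at least 1 percentage point. The move was by over 1.5 times for Hk2 (23.4% to 41.9%) and Pfkfb1 (9.12% to 5.01%). Among shares under 1%, Aldoc (0.13% to 0.28%) and Slc16a3 (0.58% to 0.25%) changed by over 1.5 times. Shares in other families, outside these 17, also moved with PBS. P4ha2 went from 40.5% to 20.5%, Bnip3 from 31.1% to 14.7%, Pdk1 from 17.2% to 33.8% and Pdk3 from 82.0% to 65.6%. No paired analysis was possible because there is a single library on each side, and neither could be left out. Depth limits members with few reads, such as Car9, Slc16a3 and Ankrd37.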
